A study of Homo sapiens with 2 samples.

Results

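Cold shock domain proteins bind single-stranded RNA and DNA through a small barrel-shaped fold that is conserved from bacteria to humans. The 6 genes described here encode such proteins: CARHSP1, YBX1, CSDA (now YBX3), YBX2, LIN28 (now LIN28A) and LIN28B. They were chosen by gene name, out of 30484 gene names on the array, because CARHSP1 was among the genes highest in miR-204 overexpressing cells on these same arrays. The values that put CARHSP1 here are therefore given as a description, and nothing is concluded from its place among all probes. The 6 genes were represented by 12 probes.

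HEK-293, a line of human embryonic kidney origin, was transfected for 48 h with 75 nM of a miR-204 mimic or of a scrambled oligonucleotide (control), and the RNAs were hybridized together to 2-color Agilent whole genome arrays. The first array had control RNA in Cy3 and miR-204 RNA in Cy5, and the second array was its dye swap. Neither labels nor methods mention more than 1 transfection, so both arrays together make 1 replicate. No result here rests on a test that compares the conditions, and the methods' t-test was run only as an alternative setting. An SD given here is the spread between the arrays unless another is named. All cells were of 1 line grown in medium with 10% serum, and the mimic brings miR-204 to a level that was not measured by these arrays.

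The YBX proteins coat messenger RNAs in the cytoplasm and take their name from the Y-box, a promoter element to which they were first found to bind. The LIN28 proteins join a cold shock domain to zinc knuckles and block the maturation of the let-7 microRNAs, which keeps let-7 targets expressed in early development. CARHSP1 is little more than a cold shock domain, is a substrate of the calcium-dependent phosphatase calcineurin, and is known to stabilize TNF mRNA. A microRNA, in turn, lowers the level or translation of mRNAs that pair with its seed, the bases near its 5′ end.

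The microRNA that defines the comparison is shown with its relatives because the seed (bases 2 to 8, in capitals) is the part that pairs with target mRNAs. The sequences are from RefSeq (GRCh38.p14), and the labels do not name the arm that the mimic carries.
hsa-miR-204-5p: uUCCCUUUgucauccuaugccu
hsa-miR-211-5p: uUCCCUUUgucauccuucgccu
hsa-miR-204-3p: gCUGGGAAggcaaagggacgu
The mature miR-204-5p lies on the minus strand at chr9:70810031-70810052, and miR-211-5p on the minus strand at chr15:31065095-31065116. These share the seed and differ at 2 of 22 bases. The opposite arm, miR-204-3p, has another seed. Matches of these seeds in the 3′ UTRs of the cold shock domain genes were not analysed here.

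Each array held 41000 probes besides controls. Between 57.2% and 66.1% of probes were well above background in each of the 4 channels, the lowest share being that of the miR-204 RNA on the second array. A probe was counted if the control RNA, or else the miR-204 RNA, was well above background on each array, which 25270 probes met, and 23159 met this in every channel. Over the latter, log2 ratios (miR-204 over control) had an SD of 0.43 for the first array and 0.28 for the second, and a Pearson correlation of -0.08 between them. The sign of the ratio differed between the arrays for 52.9% of them. Of the 7 markers fixed for HEK-293 cells, 6 had a probe well above background in every channel, with PAX2 in none. The 4 markers of leukocytes, liver and endothelium (PTPRC, CD3E, ALB and PECAM1) had no probe well above background in any channel.

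CARHSP1 was higher in miR-204 overexpressing cells, by 2.29-fold in the mean of the arrays. Its 1 probe, A_23_P38085, lies at chr16:8856490-8856549 on the minus strand (hg18). On the first array the processed signal was 841.6 ± 84.3 for control and 3436.6 ± 343.7 for miR-204, each with the error given by the authors' software. On the second array the control signal was 1198.1 ± 119.8 and the miR-204 signal 1521.9 ± 152.3. Both miR-204 signals were thus above both control signals, and the first array held the highest and the lowest of the 4. After quantile normalization of the 4 channels, the log2 ratio was 2.06 (4.16-fold) for the first array and 0.33 (1.26-fold) for the second, with a mean of 1.19 and an SD between arrays of 1.22. The size of the difference therefore rests on the first array. Without it the ratio was 0.33, short of 2-fold, and 2635 probes (11.4% of those well above background in every channel) were as high or higher on the second array. Among the same probes CARHSP1 had the third highest ratio on the first array and the fifth highest mean.

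**Figure D1:**
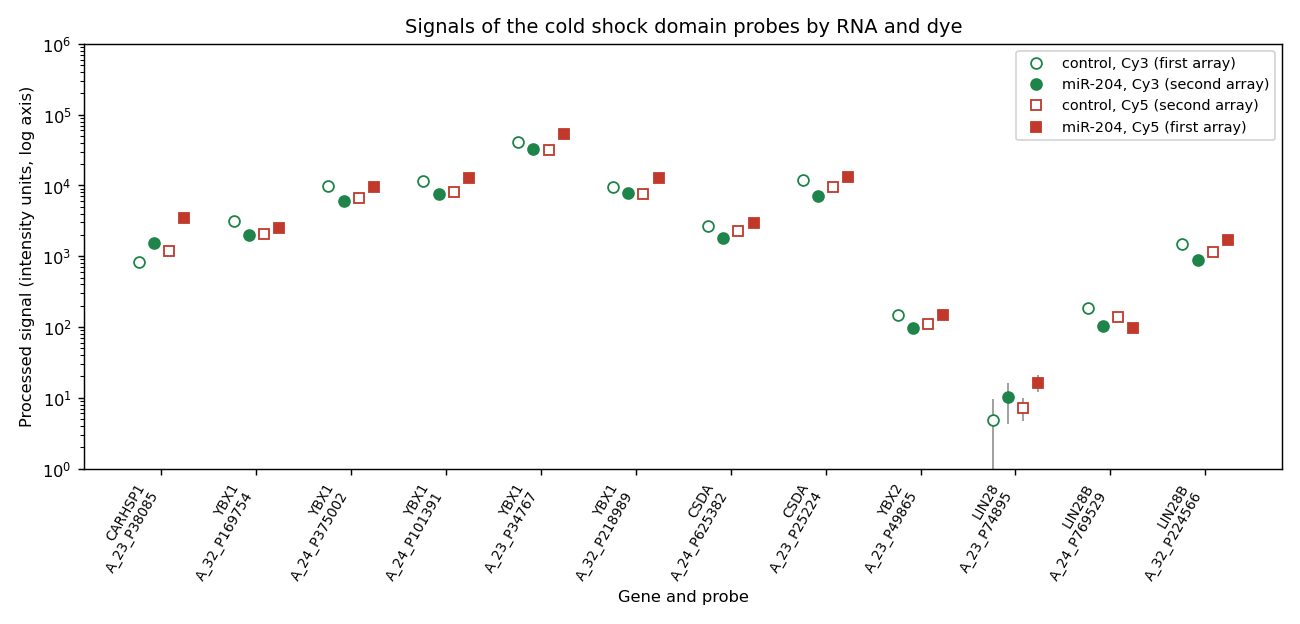
Processed signal of each of the 12 cold shock domain probes in the 4 channels, on a log axis in intensity units of the scanner. Open symbols are the control RNA and filled symbols the miR-204 RNA, circles are Cy3 and squares Cy5, and vertical lines (visible for LIN28) are the error given by the authors' software. CARHSP1 spans 841.6 (control, Cy3) to 3436.6 (miR-204, Cy5), while LIN28 lies at 16.3 or less in every channel.

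The 4 normalized CARHSP1 signals can also be compared within a dye, across the arrays. In log2 units they were 9.47 in Cy3 and 10.48 in Cy5 for the control RNA, and 10.81 in Cy3 and 11.52 in Cy5 for the miR-204 RNA. In Cy5 the miR-204 RNA was higher than the control RNA by 1.05, and in Cy3 by 1.34. CARHSP1, which was chosen as high on these arrays, was thus past 2-fold in each dye, as were 0.0435% of counted probes. This comparison was added after the values were seen and regroups the same 4 signals, so it is not a second measurement. Nothing is concluded from that share. Over all probes well above background in every channel, the Cy5 and Cy3 differences had a Pearson correlation of 0.04. The Cy5 signal of CARHSP1 was above its Cy3 signal in either RNA, by 1.01 for control and 0.71 for miR-204, where the median over probes was 0.01 for either RNA. The ratios of the 2 arrays differ by the sum of those differences. Each of them also lies between the arrays, so dye and array cannot be told apart. A sum at least as large in size as that of CARHSP1 was found for 0.773% of probes.

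No other gene of the family had a counted probe past 2-fold. Of the 11 counted probes, 1 (CARHSP1) was past 2-fold higher, which chose it, and none was past 2-fold lower. Among all counted probes, 0.123% were past 2-fold higher and 0.518% past 2-fold lower, with 1 sign on the arrays. The 10 counted probes other than that of CARHSP1 had mean log2 ratios between -0.68 and 0.27, and 9 of these lay under 1.5-fold. The sign differed between the arrays for 5 of these probes, each up on the first array and down on the second array. This combination was found for 27.8% of all probes well above background in every channel. The median over the 11 probes was -0.08, against 0.00 over all counted probes. On the second array, too, CARHSP1 had the highest ratio of the 11 counted probes, the next being 0.04.

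**Figure D2:**
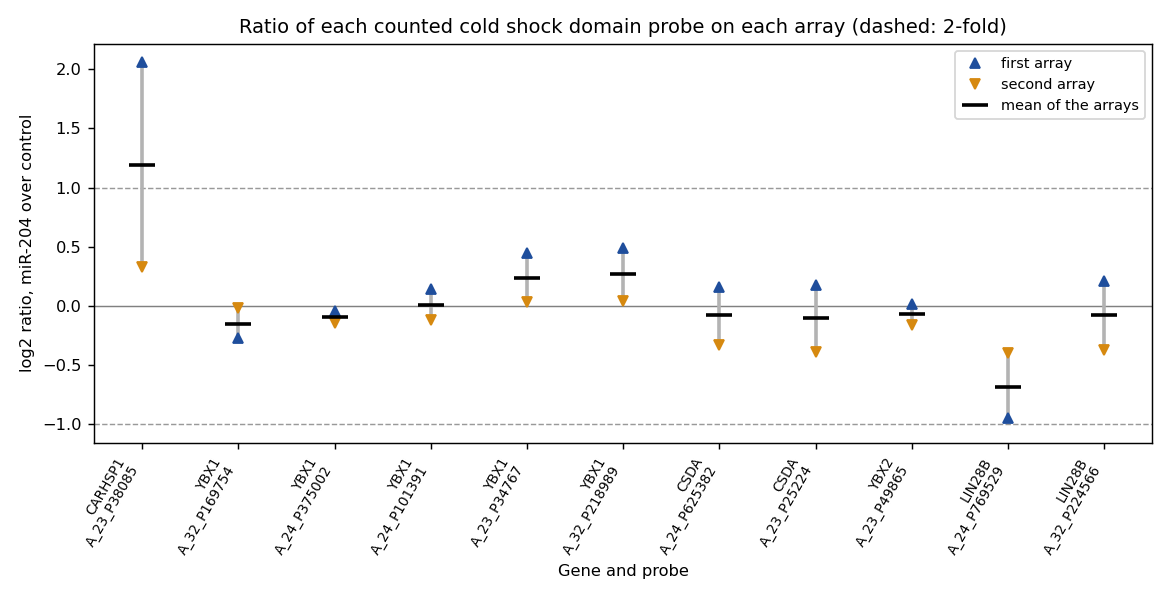
Log2 ratio of miR-204 over control for the 11 counted cold shock domain probes, with the first array as upward triangles, the second array as downward triangles and the mean as a bar. Dashed lines mark 2-fold. Only the mean of CARHSP1 (1.19) passes a dashed line, between 2.06 and 0.33 on the arrays.

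YBX1, the most abundant Y-box protein of most cells and a core component of mRNA particles, was about equal in both RNAs. Its 5 probes on the plus strand of chromosome 1 gave a mean log2 ratio of 0.06 (SD 0.19 over probes). The brightest, A_23_P34767 (chr1:42940282-42940341), gave 41388.2 for control and 54249.4 for miR-204 on the first array, and 31528.0 and 32742.3 on the second array. These are log2 ratios of 0.45 and 0.03. The neighboring A_32_P218989 (chr1:42940342-42940401) was dimmer, with 9455.4 and 12967.3 on the first array and 7651.7 and 7833.2 on the second array, and its ratios were 0.49 and 0.04. These adjoining 60-base windows thus gave nearly the same pair of ratios.

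The other YBX1 probes lie toward the 5′ end of the gene. A_24_P101391 (chr1:42934975-42935037) gave 11646.1 for control and 12571.9 for miR-204, then 8206.1 and 7532.4 on the second array, with ratios of 0.14 and -0.12. A_24_P375002, whose listed positions span 42931766 to 42934503, gave 9860.5 and 9648.2, then 6598.1 and 6018.1, with ratios of -0.04 and -0.14. A_32_P169754, spanning 42921681 to 42931762, had signals of 3119.1 and 2542.0 on the first array and 2053.7 and 2007.1 on the second array, with ratios of -0.27 and -0.02. The first array thus gave YBX1 a higher ratio at each probe than at the one 5′ of it, over a range of 0.76, whereas the second array gave a range of 0.18. RefSeq lists 10 pseudogenes of YBX1, and their part in these signals was not tested.

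This order of probes was not particular to YBX1. Among 4475 gene names with more than 1 probe well above background in every channel, the 3′-most probe had a higher ratio than the 5′-most probe in 71.7% on the first and in 51.5% on the second array. The median of that difference was 0.20 for the first array and 0.01 for the second. For YBX1 the first array gave 0.76, as large or larger in 11.6% of gene names, and the second gave 0.06. CARHSP1 had only 1 probe, so that its ratio could not be compared along the gene.

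**Figure D3:**
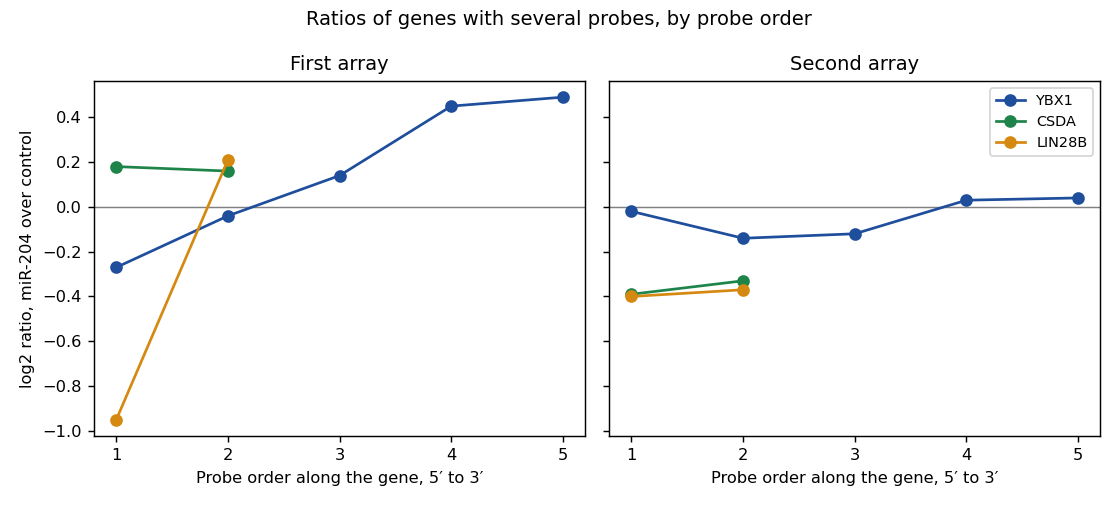
Log2 ratio of miR-204 over control for the probes of YBX1, CSDA and LIN28B in their order along the gene, from 5′ to 3′, on the first array (left) and the second array (right). YBX1 climbs from -0.27 to 0.49 and LIN28B from -0.95 to 0.21 on the first array, while on the second array the probes of each gene lie within 0.18 of each other.

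CSDA, a Y-box protein also found at tight junctions, was measured by 2 probes on the minus strand of chromosome 12 that behaved alike. A_23_P25224, with listed positions from 10743498 to 10745156, gave 12133.1 for control and 13383.4 for miR-204 on the first array, and 9484.6 and 7175.1 on the second array. A_24_P625382, listed at 10742937 to 10742963, gave 2658.9 and 2933.6, then 2243.5 and 1781.7. The log2 ratios were 0.18 and 0.16 on the first array and -0.39 and -0.33 on the second array. The direction thus changed with the array in either probe, and the gene mean of -0.09 was smaller than the SD between arrays of either probe (0.40 and 0.35). RefSeq lists 1 pseudogene of CSDA.

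YBX2, the Y-box protein of germ cells, was dim. Its probe A_23_P49865 (chr17:7132314-7132373, minus strand) gave 147.8 for control and 148.9 for miR-204 on the first array, and 109.8 and 98.0 on the second array. All 4 signals were well above background, and the ratios were 0.02 and -0.16. With the errors given by the authors' software, the ranges of the RNAs overlapped on either array, and on the second these errors were 11.2 for control and 11.0 for miR-204.

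LIN28 was not detected. The 4 signals of its probe A_23_P74895 (chr1:26628286-26628345) were 4.82 and 16.3 for control and miR-204 on the first array, and 7.27 and 10.1 on the second array, with errors from 2.55 to 5.81. None was well above background, so that no fold was read. Leaving out the filter on dim probes would have placed LIN28 next to CARHSP1, with a mean log2 ratio of 1.18 between signals that the software did not separate from background.

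LIN28B, the paralog of LIN28, was detected by both of its probes, and they differed. A_32_P224566 (chr6:105634620-105634679, plus strand) gave 1482.1 for control and 1711.1 for miR-204 on the first array, and 1146.0 and 895.0 on the second array. Its ratios were 0.21 and -0.37. A_24_P769529, whose listed positions span 105512840 to 105580910, was dimmer, with 183.6 and 95.5 on the first array and 138.3 and 104.8 on the second array. Both miR-204 signals of that probe were below both control signals. Its ratios of -0.95 and -0.40 gave a mean of -0.68, which is 1.60-fold lower, with an SD between arrays of 0.39. With loess on the mean signals the mean was -0.36 after normexp and -0.38 without background correction, short of 1.5-fold. In the processed signals it was the only counted probe of the family past 1.5-fold lower, 1 of 11, where 2.62% of all counted probes were, and CARHSP1 was the only one past 1.5-fold higher, where 1.27% were. On the second array the LIN28B probes differed by 0.04, and on the first array by 1.16, the 3′ probe being higher. A difference of that size or more from 5′ to 3′ was found for 3.02% of gene names on the first array. The second array thus gave LIN28B 0.757-fold and 0.776-fold of the control level at its probes, whereas the first gave 0.518-fold and 1.16-fold.

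The order of the genes by their mean log2 ratio was CARHSP1 (1.19), YBX1 (0.06), YBX2 (-0.07), CSDA (-0.09) and LIN28B (-0.38). The step from CARHSP1 to YBX1 was smaller than the SD of CARHSP1 between arrays (1.22). In a dye swap that SD holds any difference between the dyes together with that between arrays and spots. With 1 spot of the probe on each array, these cannot be told apart. CARHSP1 was above every YBX1 probe on each array. YBX1, YBX2 and CSDA lay closer together than the SD of the YBX1 probes (0.19), and LIN28B was nearer to CSDA than the SD of its own probes (0.42). Both miR-204 signals lay above both control signals, after normalization, for CARHSP1 and for YBX1 at A_23_P34767 and A_32_P218989. That was 3 of 11 counted probes, CARHSP1 among them having been chosen as high on these arrays, against 18.5% of all counted probes. Both miR-204 signals lay below both control signals for YBX1 at A_32_P169754 and for LIN28B at A_24_P769529, 2 of 11 against 17.2% of all.

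**Figure D4:**
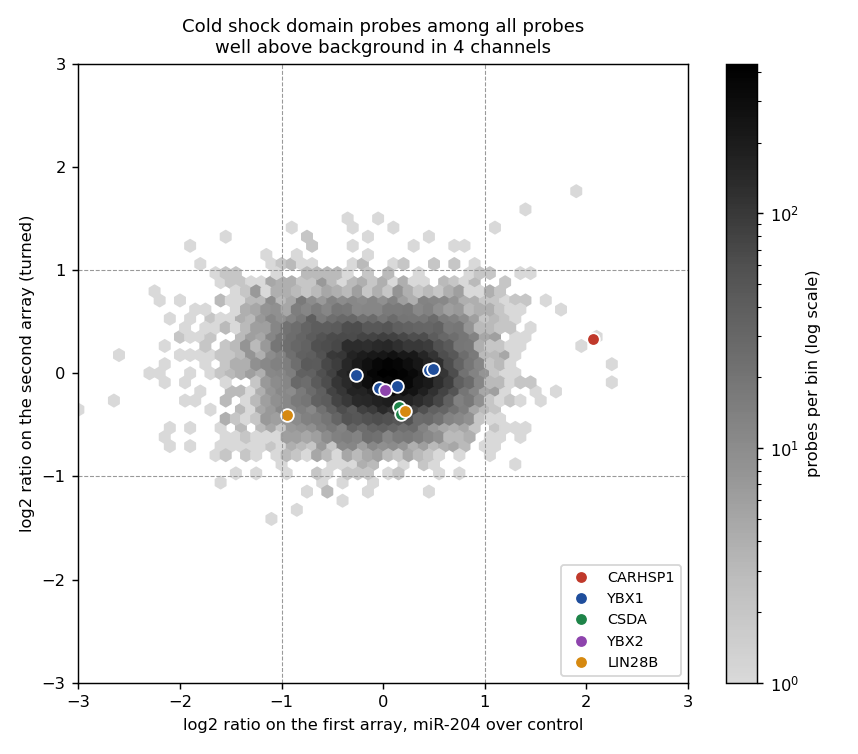
Log2 ratio of miR-204 over control on the first array (x axis) against the second array (y axis, turned to the same direction). Gray bins count the 23159 probes that were well above background in every channel, colored points are the cold shock domain probes, and dashed lines mark 2-fold. Ratios beyond 3 in size are drawn at the edge. CARHSP1 lies at 2.06 and 0.33, apart from the other members along the first array's axis.

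The probes whose pair of ratios lay nearest to that of CARHSP1, among the 23159, had the same shape. LOC90120 was nearest, at a distance of 0.16 on the log2 scale, with ratios of 1.92 and 0.25 on the first and the second array. SNF1LK2 (now SIK2), a kinase of the AMP-activated family, had 2.30 and 0.08. The transcripts ENST00000357697, with 1.78 and 0.62, ENST00000359466, with 2.21 and -0.08, and THC2733296, with 1.63 and 0.67, followed. Each had 1 probe, and likeness over 2 arrays says only that these probes were high on the first array and less so on the second array.

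Cold shock domains also occur in other proteins, among them CSDC2 and the exonucleases DIS3, DIS3L and DIS3L2, the last of which degrades let-7 precursors that LIN28 has marked. This list had 11 counted probes, and none was past 1.5-fold in the mean. CSDC2 gave ratios of 0.43 and -0.68 at A_23_P320095. The 3 probes of DIS3 had means of 0.17, 0.11 and -0.10, and those of DIS3L2 -0.21, 0.16 and -0.22. DIS3L had a mean of 0.07. The list's median was 0.00.

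Cold-inducible RNA-binding proteins carry another RNA-binding fold and are named here for their link to cold, not for a shared fold. RBM3, which rises on mild cooling, gave 2732.0 for control and 5101.5 for miR-204 on the first array, and 2059.8 and 2789.2 on the second array. It was higher on both arrays, with ratios of 0.94 and 0.44 and a mean of 0.69 (1.61-fold, SD 0.35), and was 1 of 114 counted probes of the 8 related lists past 1.5-fold higher with a ratio above 0 on each array, a share of 0.877% where all counted probes gave 1.27%. The 4 probes of its relative CIRBP had ratios from -0.57 to -0.18 on the first array and from 0.11 to 0.55 on the second, with means from -0.15 to 0.03.

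For the LIN28 and let-7 pathway, 10 counted probes of 7 processing genes (DROSHA, DGCR8, XPO5, DICER1, TUT4, TUT7 and KHSRP) had means between -0.20 and 0.35, with a median of 0.08, and TRIM71 was not matched on the array. Among 13 let-7 targets, with 22 counted probes and a median of -0.07, only CCND2, the cell cycle regulator cyclin D2, was past 1.5-fold. Its probe A_24_P270235 gave 1112.8 and 636.7 on the first array and 793.8 and 605.6 on the second array, and ratios of -0.80 and -0.40. Its 2 other probes were under that size, with means of -0.15 and -0.28. HMGA2, MYC and the IGF2BP genes had no probe past 1.5-fold.

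Proteins that bind mRNA together with YBX1 were represented by 34 counted probes of 12 genes, with a median of 0.00. HNRNPU, an RNA-binding protein of the nuclear matrix, was lower by 1.74-fold at A_24_P171110, with ratios of -1.33 and -0.27. Its 3 other probes had means of 0.16, 0.49 and 0.45, so the gene had no settled direction. Genes reported as YBX1 targets, such as CCNB1 and PCNA, had 7 counted probes between -0.28 and 0.22, and 4 of their 11 genes had none. Of these, EGFR, MMP2 and CD44 were well above background in every channel and were left out for an outlier flag.

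Calcineurin, its RCAN regulators and the kinases known to act on CARHSP1 were represented by 15 counted probes of 11 genes, with a median of 0.01 and none past 1.5-fold with the same sign on both arrays. PPP3R1, the regulatory subunit of calcineurin, gave 171.1 and 558.5 on the first array but 142.7 and 127.8 on the second array, with ratios of 1.71 and -0.18. Proteins that bind AU-rich elements, the class of site through which TNF mRNA is controlled, lay between -0.18 and 0.35 in the mean. TNF itself gave 22.8 for control and 13.3 for miR-204 on the first array, and 13.8 and 5.34 on the second array. Only the control RNA was well above background. The normalized log2 level there was 4.13, under the 4.30 that marked the lowest such signal for the miR-204 RNA, so no fold and no direction were read for TNF. Across all 8 lists, 1 of 114 counted probes (0.877%) was past 1.5-fold higher, against 1.27% of all counted probes, and 3 (2.63%, TNF included) were past 1.5-fold lower, against 2.62%. The shares of the lists were thus near or under those of all probes, and their median was 0.00.

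**Figure D5:**
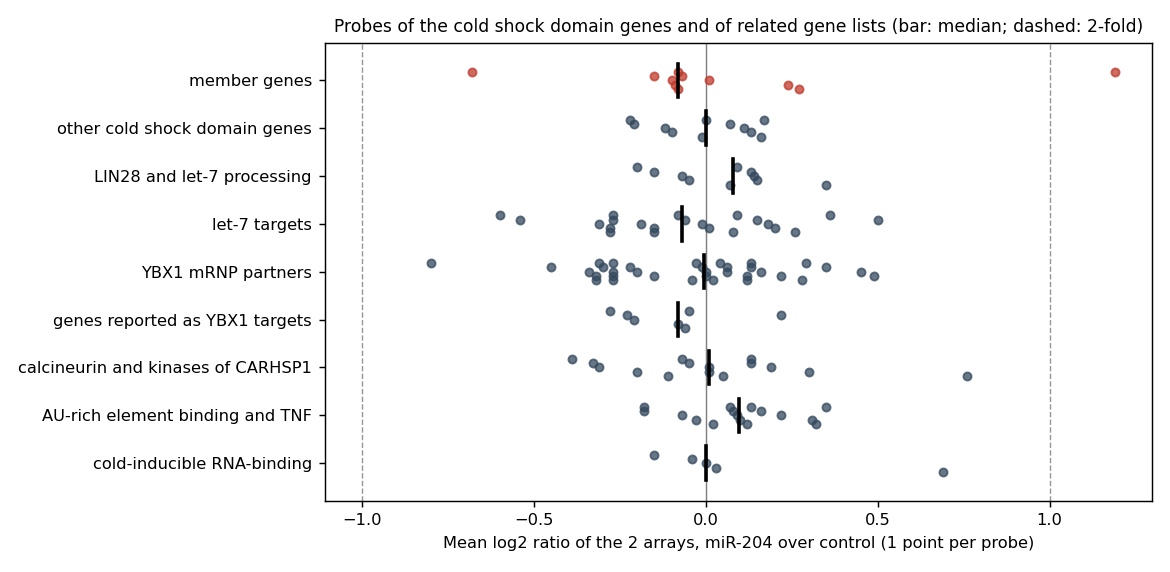
Mean log2 ratio of miR-204 over control, 1 point for each counted probe of the cold shock domain genes (red) and of the 8 related lists (blue), where a gene on 2 lists is drawn in both. Black bars are medians and dashed lines mark 2-fold. TNF, for which no fold was read, is left out. The lists center near 0, and of the points drawn CARHSP1 is the only one past a dashed line.

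The promoters of the family were searched for ATTGG, the core of the Y-box, on both strands of the 300 bases that RefSeq (GRCh38.p14) gives around the start of each gene. It was found for YBX1, YBX2 and YBX3 and not for CARHSP1 and LIN28B, and LIN28A was not matched. Of 27305 promoters, 35.7% held it. A match of so few letters is a description of the sequence only.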

How the data were processed

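Total RNA of HEK-293 cells given miR-204 mimic or scrambled oligonucleotide was measured on 2 Agilent arrays that form 1 dye swap. The processed signals deposited by the authors are intensity values from Feature Extraction 9.5.3.1, corrected for background and dye. Mean and local background intensity values were deposited uncorrected. The log ratio column deposited by the authors is log10 of Cy5 over Cy3. A table for the series, also deposited, gives log2 of miR-204 over control for either array, with medians of 0.00845 and -0.0184.

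Control spots and 128 flagged probes were left out, no probe of the 6 genes among them. Spots of a probe were averaged, and log2 signals were quantile normalized over the 4 channels (limma 3.58.1, R 4.3.3). Calls needed a mean log2 ratio of at least 1 in size and 1 sign on the arrays. These steps were tested on simulated data with 200 of 23159 probes changed 4-fold, far past the limit. All 200 were recovered and 1 unchanged probe was called. The simulated noise was normal, with no dye difference of single probes, so the number called there does not carry over to these arrays. Positions are those of the files (hg18), for which no annotation was used. All probes of the 6 genes are named, as are list genes with a probe past 1.5-fold, the other cold shock domain and cold-inducible genes, and the 5 gene names nearest to CARHSP1. Not every gene under this rule is reported here. Members and lists were chosen with earlier results of these data known. The alternatives changed the background correction, normalization, values used, filter, flags, arrays, threshold and test. The number of arrays limits the precision.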

Additional observations from a re-analysis of the deposited data

How the results depend on the processing

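The mean log2 ratio of CARHSP1 was 1.11 to 1.27 under the 7 other settings of background correction, normalization, flags and values that used both arrays, and 0.33 to 2.06 with 1 array left out (0.33 on the second array alone). The count of family probes past 2-fold higher, 1 here, was 2 with no filter on signal (LIN28 was added) and 0 with 2-fold required on each array. It was 0 to 1 with 1 array left out, and 0 by the methods' t-test with 2-fold, before and after Benjamini-Hochberg adjustment. That test sets the control signals against the miR-204 signals, takes the arrays as replicates and ignores the pairing within each array. With 1 replicate, nothing is concluded from it. The count lower, 0 here, was 1 at 1.5-fold (LIN28B). The list probes past 2-fold higher, 0 here, were 1 at 1.5-fold and 0 to 1 with 1 array left out. Those lower, 1 here (TNF, with no fold read), were 3 at 1.5-fold and 0 with loess after normexp or without background correction, with all 4 channels well above background, with 2-fold on each array or in each dye (added after seeing the data), and by the methods' t-test before and after adjustment. LIN28B at A_24_P769529 was lower in each of 9 alternatives, by -0.36 to -0.95. YBX1 at A_24_P101391 kept its sign in 3 of 9. Each ratio pairs the 2 RNAs within an array. No paired test between the conditions could be made, because both arrays, the dye swap included, form a single replicate. Signal over background limits LIN28, TNF, YBX2 and LIN28B at A_24_P769529. At that LIN28B probe the raw miR-204 signal was 1.92 times the local background on the first array and 1.98 times on the second.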
